A study of Mus musculus with 36 samples.

Results

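Luminal Clu-high cells of double-mutant salivary glands were chosen by a fixed gate on transcript counts: a barcode with at least 100 genes and under 15% mitochondrial transcripts, at least 2 transcripts of Clu at 20 or more per 10000, at least 1 transcript of Krt8 or Krt18, and none of Krt14, Krt5, Esp4, Egf, Bmp2, Bmp4, C1qa and Col1a1. Of 12603 barcodes kept in 14 double-mutant glands, 353 met the gate; 23346 barcodes were kept in all 26 Drop-seq glands. The gate was selected on these data, so the 11 genes it uses describe the cells and are no result.

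Drop-seq measured the RNA of single cells; in this method each cell is captured in a droplet with a barcoded bead and each captured transcript receives a unique molecular identifier (UMI). Mice were C57BL/6, and each library held the cells of 1 submandibular gland, dissociated, sorted as live single cells and fixed in methanol. Double-mutant mice (beta-catenin GOF; Bmpr1a LOF, K14-cre driven) were sampled at P40 (7 glands) and P90 (7 glands), and control mice at P40 (6 glands) and P90 (6 glands). RNA and antibody tags were measured together by CITE-seq in 2 double-mutant and 2 control glands at P70, and bulk RNA in 1 gland per genotype (control at P70, double-mutant at P100). Control mice carried the same K14-cre and a R26-EYFP reporter without the floxed beta-catenin and Bmpr1a alleles, and double-mutant mice carried the reporter too. The K14 promoter drives Cre in basal epithelium, so recombined alleles reach other epithelial cells only through descent from such cells.

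Clusterin (Clu) is a secreted chaperone that is commonly raised in stressed, regenerating or transformed epithelium. Luminal cells line the ducts and acini of the salivary gland, carry the simple-epithelium keratins Krt8 and Krt18 and make saliva proteins, whereas basal cells carry Krt5 and Krt14. Constitutively active beta-catenin switches on Wnt target genes, and Bmpr1a is a receptor through which Bmp ligands induce the Id genes. In the mm10 mouse assembly with the GENCODE vM21 annotation, Clu lies on the plus strand of chromosome 14 from 65968483 to 65981547, and Krt8 and Krt18 lie next to each other on chromosome 15, on the minus strand from 101996698 to 102004482 and on the plus strand from 102028180 to 102032027.

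The sequenced depth limits what a cell can show. A gated cell held a median of 955 UMIs from 540 genes, a Clu-free luminal cell 1600.5 UMIs, a basal-keratin cell 908 UMIs and a C1qa-bearing macrophage 832 UMIs. Totals of the double-mutant libraries ranged from 777537 to 6522928 UMIs. The library labelled male at double-mutant P40 replicate 1 held 591 Xist UMIs and 1 Y-linked UMI, and the library labelled female at double-mutant P90 replicate 5 held 0 Xist UMIs and 194 Y-linked UMIs, so both went against their labelled sex. Both belong to batch B11, as the titles number batches, and differ in labelled stage; whether their stage labels hold was not tested, and the comparisons by stage are given with and without them. No gated cell shared its barcode with another library, although 31 of 435 pairs of libraries shared a barcode, at most 2 each. No doublet caller was run; 74 of the 427 cells that met the Clu and keratin criteria were left out for a transcript of an excluded gene, most often Egf (31 cells).

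Clu counts within the gated cells were low but well spread. The median cell had 5 Clu UMIs (2 to 121), or 51.5 per 10000 (20.3 to 563), and 62 cells had exactly 2. The 3 cells just inside the limit were at 20.3, 20.8 and 20.9 per 10000 and the 3 just outside at 19.6, 19.4 and 19.4. A further 656 cells passed all other criteria with some Clu below the limit, 467 of them with 1 UMI, so the gate cuts a range and not a separate class. A Clu UMI was present in 14.1% of all kept barcodes of a double-mutant gland (mean over 14 glands, SD 5.88), against 2.37% (SD 2.58) of C1qa-bearing macrophages of the same glands, cells that should lack Clu.

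The label was checked against its markers that the gate did not use. Wfdc18, a secreted protein with a whey acidic protein (WAP) domain encoded on chromosome 11 (plus strand, 83709015 to 83711348), was detected in 81.0% of gated cells, in 65.8% of Clu-free luminal cells, 48.1% of basal-keratin cells and 36.5% of macrophages. After thinning each cell to 500 UMIs, which left out 47 shallower gated cells, 261 Clu-free, 74 basal-keratin and 202 macrophage cells, the shares were 75.2%, 44.3%, 31.6% and 23.9%. Nupr1, a stress-induced chromatin protein encoded on chromosome 7 (minus strand, 126623249 to 126630861), was detected in 68.0% of gated and 66.2% of Clu-free cells, and after thinning in 57.8% and 39.6%. Both markers were thus present, and neither was particular to the gated cells. Markers of other cells were low but not absent. Over the 10 glands with at least 10 gated cells, the summed level of 10 macrophage markers was 0 to 4.03 UMIs per 10000 (1 marker never seen), of 8 fibroblast markers 0 to 5.58 (5 never seen), of 8 endothelial markers 0.155 to 3.80 (1 never seen), of 8 myoepithelial and pericyte markers 0.432 to 10.99 (4 never seen), of 10 lymphoid and plasma markers 0 to 2.56 (6 never seen) and of 5 erythrocyte markers 0 to 2.56 (1 never seen). The myoepithelial and pericyte sum had a median of 2.15 against 0.383 (0.0443 to 1.68) in Clu-free luminal cells of the same glands and was higher in gated cells in 8 of 10 glands. Rgs5, a regulator of G-protein signalling known from pericytes, gave 143 of its 147 UMIs, whereas Cnn1, Des, Oxtr and Tagln were at 0; the part of such cells in the results was not tested.

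The first comparison asked whether cells of this gate were tied to the double-mutant genotype, and gated cells made up more of double-mutant than of control glands. In double-mutant glands their share of kept barcodes was lowest at 0.519%, with a median of 3.08% and a highest value of 5.12%. In control glands the same gate gave 0% to 0.702%, with a median of 0.129% and 22 cells in all 12 glands. The ranges overlapped, with 12 of 14 double-mutant glands above every control gland. The mean share was 2.82% ± 1.64 (SD, n = 14) in double-mutant and 0.198% ± 0.206 (SD, n = 12) in control glands, a 14.3-fold difference of 2.62 percentage points. The gate was chosen on the double-mutant glands with differences between the genotypes known, so these shares are a description and no test is given. Over the glands of batches that held both genotypes, the pooled means differed by 2.84 points. Leaving out the 2 libraries that go against their labelled sex gave 2.58 points. The 2 control glands with no gated cell had counts that allow a share of up to 0.467% and 0.432%, with a count of 0 taken to allow 3 cells; this limit covers counting error only.

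**Figure D1:**
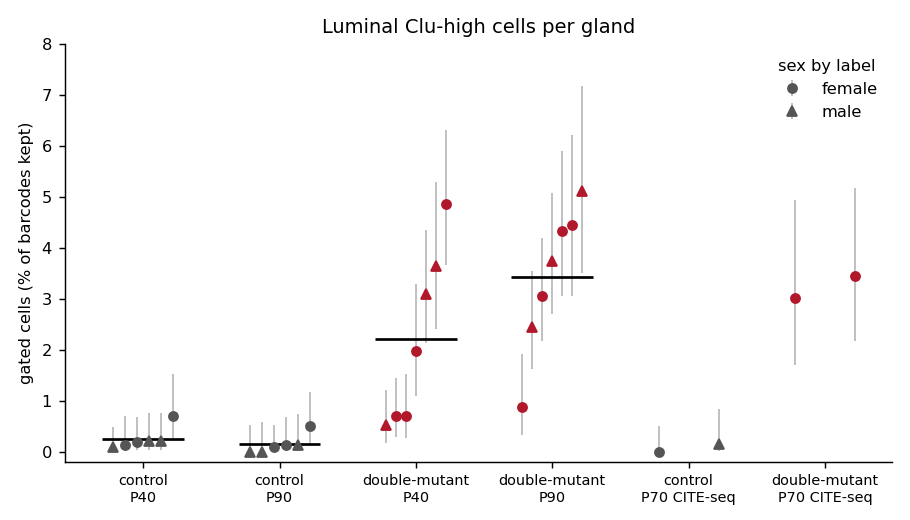
Share of kept barcodes that met the luminal Clu-high gate (y axis, %) in each gland of 6 groups (x axis). Points are glands (circles female, triangles male by label), grey bars are exact 95% binomial intervals and black lines are means of the Drop-seq groups; double-mutant glands reach 5.12% and control glands stay at or below 0.702%.

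Among double-mutant glands, the share did not separate the stages. At P40 it was lowest at 0.519%, with a median of 1.97% and a highest value of 4.87%, and at P90 the corresponding values were 0.882%, 3.75% and 5.12%. The ranges overlapped over most of their length. The means of 2.21% ± 1.70 and 3.43% ± 1.43 (SD, n = 7 each) differed by 1.22 points (exact permutation test, two-sided, p = 0.168, unadjusted). Over the glands of the 3 batches that held both stages, the pooled means differed by -0.336 points (exact permutation test within batches, p = 0.792). These means pool unequal numbers of glands, and the batches went different ways. In B11 the P40 glands were at 0.519% to 3.09% and the P90 gland at 3.06%. In B12 the values were 0.699% at P40 and 2.45% at P90, and in B13 3.65% and 4.87% at P40 and 0.882% at P90. Over all batches, without the 2 libraries that go against their labelled sex, the stage difference was 1.42 points (exact permutation test, p = 0.165). In batches with both stages and without those libraries, 2 glands at P90 and 3 at P40 remained. Their pooled means differed by -1.41 points (exact permutation test within batches, p = 0.500). Glands labelled male held 3.10% ± 1.54 (n = 6) and glands labelled female 2.62% ± 1.78 (n = 8) gated cells, a difference of 0.477 points (exact permutation test, two-sided, p = 0.607), and of 0.540 points without those 2 libraries. A p above the threshold does not show that the stages or the sexes were equal.

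The same gate was then applied to glands that the rule had not used. In CITE-seq at P70 it gave 22 of 638 cells (3.45%) and 15 of 497 cells (3.02%) in the 2 double-mutant glands, and 1 of 672 (0.149%) and 0 of 728 cells (up to 0.412%) in the 2 control glands. Both double-mutant glands lay above both control glands. The control libraries held sex-linked transcripts of both sexes: 151 Xist and 60 Y-linked UMIs in the 1 labelled male, and 165 and 71 in the 1 labelled female. The double-mutant libraries, both labelled female, held 193 and 154 Xist UMIs and 16 and 14 Y-linked UMIs. Whether cells of different glands were mixed in these libraries was not tested. With 2 glands a genotype no test was made.

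The transcriptome of the gated cells was next set against luminal cells of the same glands that passed the same gate but held no Clu UMI (3258 Clu-free luminal cells), using UMIs summed per gland in the 10 glands with at least 10 cells of both. The gated cells had higher transcripts of the secreted defence proteins Ltf, Lcn2, Wfdc2 and Slpi and of most tested luminal epithelial genes, and lower transcripts of acinar and ductal saliva proteins. Of 1956 genes tested, 369 (18.9%) passed an adjusted p of 0.05 in the quasi-likelihood test of edgeR (Benjamini-Hochberg adjustment, gland as block), 171 (8.74%) higher and 198 (10.1%) lower. The 10 genes with most UMIs in Clu-free cells, all of them saliva proteins led by Spt1, took 34.9% to 67.7% of the UMIs of those cells in a gland (median 49.8%) and 2.49% to 17.3% (median 8.40%) in gated cells. Folds therefore depend on the scaling. With total UMIs in place of TMM factors the median log2 difference of all genes moved by 1.06, and 1492 genes were called higher and 40 lower. Levels, counts of glands and overlaps against Clu-free cells, here and below, are by total UMIs and carry this shift. How many of all tested genes differed in the same direction in every gland, or without overlap, is not given, so such counts and overlaps lack a background. All 171 higher genes were called higher under both scalings, whereas 95 of the 198 lower genes took the opposite sign by total UMIs, 20 of them past the threshold. With the number of summed cells as a covariate edgeR called 0 genes (151 at an unadjusted p under 0.05), and with summed libraries thinned to equal depth it called 29 of the 499 that were then tested.

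Several of the higher genes encode defence proteins. Lactoferrin (Ltf, chromosome 9, plus strand, 111019271 to 111042767), an iron-binding antimicrobial milk and saliva protein, stood at 9.91 to 128 UMIs per 10000 over the 10 glands (median 45.9) in gated cells and at 0.0345 to 6.69 (median 0.399) in Clu-free cells. Every gland was higher in gated cells, and the groups did not overlap. The log2 difference was 5.04 ± 0.30 (SE). Lipocalin-2 (Lcn2, chromosome 2, minus strand, 32384633 to 32388252), which binds bacterial siderophores, stood at 0.727 to 20.5 (median 8.55) against 0.0574 to 1.53 (median 0.303), higher in all 10 glands (log2 3.46 ± 0.25). The WAP-domain gene Wfdc2 stood at 8.42 to 24.8 (median 14.4) against 0.532 to 3.70 (median 2.34), again with no overlap (log2 1.79 ± 0.19). The lectin Reg3g, an antibacterial protein, was at 0 to 7.16 (median 2.86) against 0 to 0.535, higher in 9 of 10 glands. Of the 353 gated cells, 44.5% held a UMI of Ltf, 29.5% of Lcn2, 54.1% of Wfdc2 and 9.07% of Reg3g. Among 16 listed genes of WAP-domain and antimicrobial secretion, 10 were tested: 4 rose (Ltf, Lcn2, Wfdc2 and the protease inhibitor Slpi, log2 1.93) and 5 fell (Bpifa2, Lpo, Pglyrp1, Pigr and Wfdc12), with a median of -0.46 beside -0.04 over all genes. The group thus did not move as one. Wfdc18 itself was at 147 to 700 UMIs per 10000 (median 496) in gated and 23.7 to 426 (median 199) in Clu-free cells, and higher in 9 of 10 glands on that scale, with a log2 difference of 0.48 ± 0.36 by TMM. Nupr1 was at 11.7 to 56.1 (median 25.7) against 5.67 to 30.2 (median 16.5), with a log2 difference of -0.20 ± 0.20. No test is given for these markers of the label.

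The other leading genes were of several kinds. Insulin-like growth factor 2 (Igf2) was at 0 to 38.4 UMIs per 10000 (median 12.8) in gated cells and 0 to 1.53 (median 0.0731) in Clu-free cells, higher in 9 of 10 glands. The exception was double-mutant P90 replicate 3, where it was at 0. The matrix protein Ecm1 was at 0.310 to 7.69 (median 2.80) against 0 to 0.557, and Sprr1a, a cornified-envelope precursor, at 0 to 18.6 (median 3.87) against 0 to 0.697. Annexin A1 (Anxa1), a calcium-dependent membrane protein, was at 7.17 to 26.6 (median 18.3) against 1.18 to 5.35, a difference without overlap between the groups (log2 1.73 ± 0.16). The surface proteins Ly6a (Sca-1), Ly6d and Tm4sf1 and the calcium-binding S100a11 rose by log2 1.85, 1.75, 2.77 and 1.47, each in 10 of 10 glands.

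**Figure D2:**
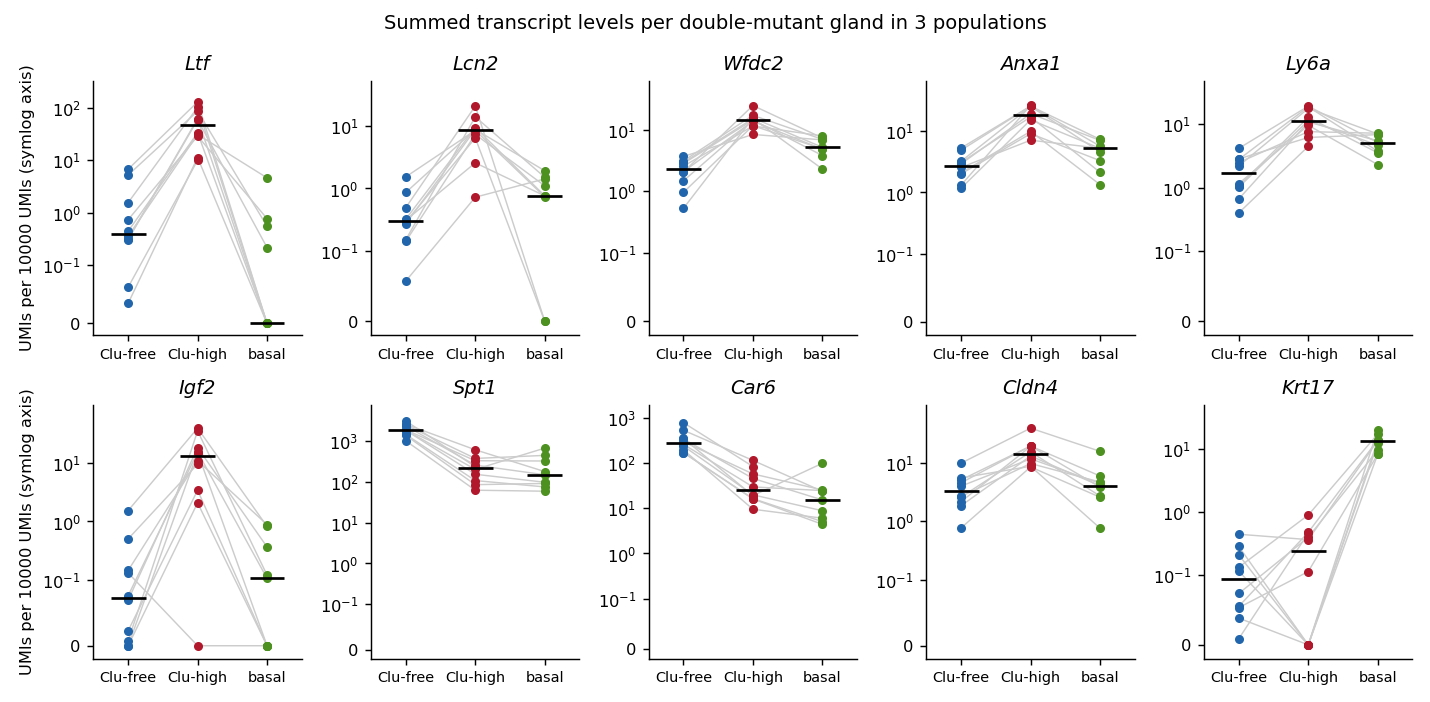
Level of 10 genes (y axis, UMIs per 10000 UMIs summed per gland, symmetric log axis, linear near 0) in Clu-free luminal, luminal Clu-high and basal-keratin cells (x axis). Each point is a double-mutant gland, grey lines join populations of 1 gland and black bars are medians; Ltf has medians of 0.399 and 45.9 in Clu-free and Clu-high cells, and Spt1 of 1852 and 218.

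Luminal epithelial genes as a group were higher. Of 13 tested of 16 listed, 10 rose, 1 fell and 2 did not pass, with a median log2 difference of 0.69 beside -0.04 over all genes. They included the tight-junction proteins Cldn4 (log2 1.201 ± 0.17), which stood at 8.40 to 38.3 against 0.777 to 9.76 UMIs per 10000, and Cldn3 (0.93), the adhesion molecule Epcam (0.70) and the keratin Krt7 (0.85). Aqp5, the water channel of acinar cells, fell (log2 -2.06) and was lower in 9 of 10 glands.

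Targets of the 2 engineered pathways were few among the genes that could be tested. Of 24 listed Wnt targets and feedback genes 6 were tested, of which 2 rose, 1 fell and 3 did not pass (median log2 0.48 beside -0.04). Cyclin D1 (Ccnd1), which drives entry into the cell cycle, was at 0.775 to 6.48 UMIs per 10000 against 0.0709 to 1.33 (log2 1.69 ± 0.23), and the transcription factor Sox4 at 2.61 to 12.1 against 0.576 to 3.79 (log2 0.99 ± 0.17); both were higher in 10 of 10 glands. Pleiotrophin (Ptn), a secreted growth factor, fell (log2 -2.97 ± 0.32). The summed level of the 24 genes had a median of 19.9 UMIs per 10000 in gated cells (10 glands), 6.07 in Clu-free luminal cells (14 glands) and 48.6 in basal-keratin cells (12 glands). It was 167 in 3 glands with at least 10 cells that held Bmp2 or Bmp4 and a keratin. Gated cells thus lay between the Clu-free luminal and the basal-keratin cells on this sum, a description with no test. By total UMIs the median of all genes tested was itself higher in gated than in Clu-free cells, by log2 1.02. The step from Clu-free cells and the counts of glands in this paragraph are to be read against that shift. The sets of glands behind the sums also differ. Of 13 Bmp and Tgfb response genes 4 were tested, and the Bmp-induced transcriptional inhibitors Id1 (log2 1.76 ± 0.22) and Id3 (1.31 ± 0.23) rose. Both were higher in all 10 glands, Id1 at 2.56 to 10.02 against 0.294 to 2.40.

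Antigen presentation and growth factor genes moved in part. Of 14 tested MHC and interferon genes 5 rose (B2m, H2-D1, H2-K1, Ly6a and Ly6e) and 2 fell, with a median of 0.60. The light chain of class I molecules, B2m, stood at 6.01 to 53.1 UMIs per 10000 against 2.46 to 14.1 and was higher in 10 of 10 glands (log2 0.87 ± 0.14). The class II invariant chain Cd74 fell by TMM (log2 -1.59), with levels of 0.114 to 3.30 against 0.133 to 4.71, and did not pass by total UMIs. Of 6 tested growth factor and receptor genes, 3 rose: the Egf-family ligand Hbegf (log2 1.05), the platelet-derived growth factor Pdgfa (0.89) and the chemokine Cxcl1 (0.70). Cxcl1 lost its call when any of 7 of the 10 glands was left out (log2 0.49 to 0.69), among them P90 replicate 2, and Pdgfa without P40 replicate 6 (0.73). Squamous differentiation had 2 of 5 tested genes higher (Sfn and Sprr1a), matrix and epithelial-mesenchymal transition genes 2 of 4 (Timp3 and Tpm1), immediate-early genes 2 of 17 (Fosb and Hspa1b), stress genes 2 higher and 3 lower of 14, and glycolysis (8 tested), proliferation (2) and basal epithelium (2) had none past the threshold. These counts depend on the scaling: by total UMIs all 5 squamous, 4 matrix, 17 immediate-early, 2 proliferation, 2 basal and 6 growth factor genes tested were called higher, as were 7 of 8 glycolysis, 11 of 14 MHC and interferon and 8 of 14 stress genes, and 1 stress gene (Asns) was called lower.

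Saliva genes of acinar and ductal cells were lower. All 8 tested of 14 acinar genes fell (median log2 -3.33), and 6 of these 8 were also called lower by total UMIs. Spt1, a major submandibular secretory protein, was at 62.2 to 607 UMIs per 10000 (median 218) in gated cells and 1004 to 3075 (median 1852) in Clu-free cells, without overlap (log2 -4.29 ± 0.46). Carbonic anhydrase 6 (Car6), the secreted salivary form, was at 9.55 to 115 against 171 to 788, and the secretoglobin Scgb2b26 at 1.91 to 41.0 against 52.5 to 293. The mucin gene Muc19 (log2 -6.15 ± 0.46) was at 0 to 1.47 against 0 to 120, Mucl1 at 0 to 2.76 against 1.95 to 25.6, and the ribosome receptor of the rough endoplasmic reticulum, Rrbp1, at 1.83 to 5.57 against 4.40 to 9.71. The other genes named by their rank were the secretoglobins Scgb1b26-ps, Scgb2b2 and Scgb2b24, Wfdc12 and the salivary peroxidase Lpo, with log2 differences of -3.63, -4.68, -2.76, -3.29 and -4.06. Reads may have been split among similar members of the Scgb family, which was not tested, so single members are uncertain. Of 8 tested ductal genes 7 fell (median -3.74), of which 5 were also called by total UMIs; Klk1 and Smgc were not. Of 22 oxidative phosphorylation genes 8 fell by TMM (median -0.45), and all 8 took the opposite sign by total UMIs, so that no direction can be given for them.

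**Figure D3:**
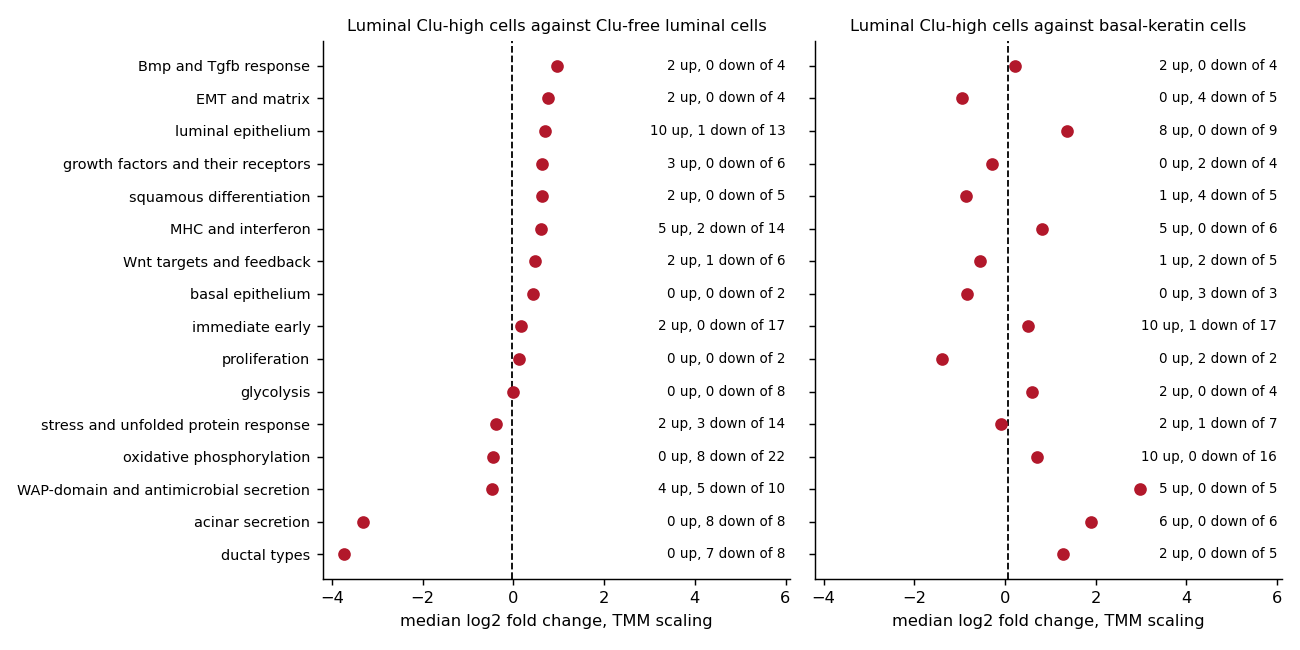
Median log2 difference (x axis, TMM scaling) of the tested genes of each of 16 gene lists (y axis) between luminal Clu-high cells and Clu-free luminal cells (left) or basal-keratin cells (right). The dashed line is the median over all genes tested, and the text gives genes past the threshold; acinar genes lie at -3.33 on the left and at 1.90 on the right.

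Against basal-keratin cells (428 cells) the gated cells differed in more of the genes that could be tested. The basal-keratin gate asked for 2 or more UMIs of Krt14 and Krt5 together and fewer than 2 of Clu. It also left out cells with a UMI of Esp4, Egf, C1qa or Col1a1. In the 9 glands with at least 10 cells of both, 296 of 666 genes (44.4%) passed the same edgeR quasi-likelihood test, 157 (23.6%) higher and 139 (20.9%) lower. By total UMIs 87 were higher and 193 lower, with the median of all genes shifted by -0.29. How many of the 666 genes differed in the same direction in every gland, or without overlap, is not given. Counts of glands and overlaps against basal-keratin cells, here and below, thus lack a background. Both gates are built on keratins, so luminal and basal genes that go with those keratins were bound to differ. The basal-keratin cells also held other transcripts: over 12 glands the summed level of 8 myoepithelial and pericyte markers had a median of 15.5 UMIs per 10000 that of 10 macrophage markers 21.3 and that of 8 fibroblast markers 13.6, against 2.15, 1.47 and 0.709 in gated cells, and the part of these cells in the differences was not tested.

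Ltf, Lcn2 and Wfdc2 were higher here too, and so was Wfdc12, which had fallen against Clu-free cells. Ltf was at 11.1 to 128 UMIs per 10000 in gated cells and 0 to 4.58 (median 0) in basal-keratin cells (log2 7.08 ± 0.56). The 5 tested genes of WAP-domain and antimicrobial secretion, Wfdc18 included, had a median of 2.98 beside 0.07 over all genes. Bglap3, an osteocalcin-related gene, was at 5.50 to 21.2 against 0 to 1.34, the mucosal chemokine Cxcl17 at 2.56 to 10.2 against 0.178 to 3.83, and Cldn4 at 8.40 to 38.3 against 0.766 to 15.5. Bglap3 was higher in 9 of 9 glands without overlap. Also higher were Anxa1 (log2 2.18), Ly6e (1.64), Cd24a (1.73), the calcium-binding S100a1 (2.40), the LIM-domain gene Crip1 (2.08) and the submandibular gland protein Smgc (4.46, higher in 6 of 9 glands); Wfdc18 and Nupr1 differed by 4.53 and 3.22 and carry no test here. Luminal epithelium had 8 of 9 tested genes higher (median 1.36), acinar secretion 6 of 6 (1.90), immediate-early genes 10 of 17, oxidative phosphorylation 10 of 16 and MHC and interferon 5 of 6 (B2m, H2-D1, H2-K1, Ly6a and Ly6e). By total UMIs the genes called higher were 6 of 9, 5 of 6, 3 of 17, 2 of 16 and 5 of 6 in the same order, and 2 immediate-early genes were called lower.

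Genes of basal epithelium and of matrix were lower. The basal keratin Krt17 was at 0 to 0.901 UMIs per 10000 against 8.33 to 20.5 (log2 -5.30 ± 0.35), and Sparc, a collagen-binding matrix protein, at 0 to 0.366 against 2.29 to 18.4. The groups did not overlap for either. Sostdc1 and Wif1, which restrain Bmp and Wnt signals, were at 0 to 0.901 against 4.03 to 15.8 and at 0 to 1.50 against 3.82 to 14.6, and follistatin (Fst), which binds activins, at 0 to 0.477 against 2.85 to 8.78. Lgals7, Sfn, Apoe, Dcn, Adamts1 and Timp3 fell by log2 values of -5.55, -2.71, -4.10, -3.42, -2.93 and -1.56, each in 9 of 9 glands. By list, 3 of 3 tested basal genes, 4 of 5 squamous genes, 4 of 5 matrix and epithelial-mesenchymal transition genes, 2 of 5 Wnt genes (Ptn and Wif1, with Ccnd1 higher) and 2 of 2 proliferation genes fell. Sprr1a was the only tested squamous gene that rose. Of 4 tested Bmp and Tgfb response genes, Id1 and Id2 were higher by TMM, whereas by total UMIs 0 were called higher and 2 lower. Of 4 tested growth factor and receptor genes, Igfbp5 and Pdgfa were lower under both scalings. Id1 and Pdgfa thus rose against Clu-free cells, but Id1 was not called by total UMIs here and Pdgfa fell. Ccnd1 passed the threshold with levels of 1.04 to 6.48 against 1.53 to 5.30 (log2 0.61 ± 0.24), but not by total UMIs (0.34) nor when any of 7 of the 9 glands was left out (0.40 to 0.64).

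Within the gated cells no tested gene passed the threshold between P90 and P40, which does not show that the stages were equal. In 6 glands at P90 and 4 at P40, with sex as covariate, edgeR's quasi-likelihood test called 0 of 856 genes (0% in either direction); 16 had an unadjusted p under 0.05, 9 of them higher at P90, and DESeq2 called 0 with 21 at an unadjusted p under 0.05. The genes with the smallest p, chosen after their values were seen, were the transcriptional coactivator Cited4 (log2 2.88, at 0.601 to 2.93 UMIs per 10000 at P90 and 0 to 0.485 at P40), the transcription factor Cebpb (2.66), the immunoglobulin transporter Pigr (1.97) and Mal (-1.67), all with an adjusted p of 0.996 by edgeR. Of these glands, only those of batch B11 came from both stages (2 at P40 and 1 at P90), too few for a within-batch comparison, and with batch in the fit the count was also 0 (130 at an unadjusted p under 0.05). Of those 3 glands, 2 are the libraries that go against their labelled sex, and without both the count was 0.

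Levels varied between glands of the same stage. Wfdc18 ranged from 209 to 502 UMIs per 10000 at P40 and from 147 to 700 at P90, Ltf from 11.1 to 61.3 and from 9.91 to 128, and Nupr1 from 22.7 to 56.1 and from 11.7 to 45.0. Some genes of ductal secretion, chosen after their values were seen, varied widely. Kallikrein 1 (Klk1), a protease of granular and striated ducts, was at 594 in the library labelled double-mutant P40 replicate 1, at 428 in P90 replicate 1 and at 0.901 in P90 replicate 4. Without the 2 libraries that go against their labelled sex, Klk1 was at 0.955 to 428 in 4 glands labelled male and 0.901 to 191 in 4 labelled female, and the ranges overlapped. Dcpp1, a demilune-cell and parotid protein, was at 279 in P40 replicate 6 and 55.7 in P40 replicate 2, both labelled female, at 0 to 1.91 in 4 glands labelled male and at 3.30 to 279 in 4 labelled female, again without those libraries. Smgc was at 0 in 3 glands and at 243 in P40 replicate 6.

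**Figure D4:**
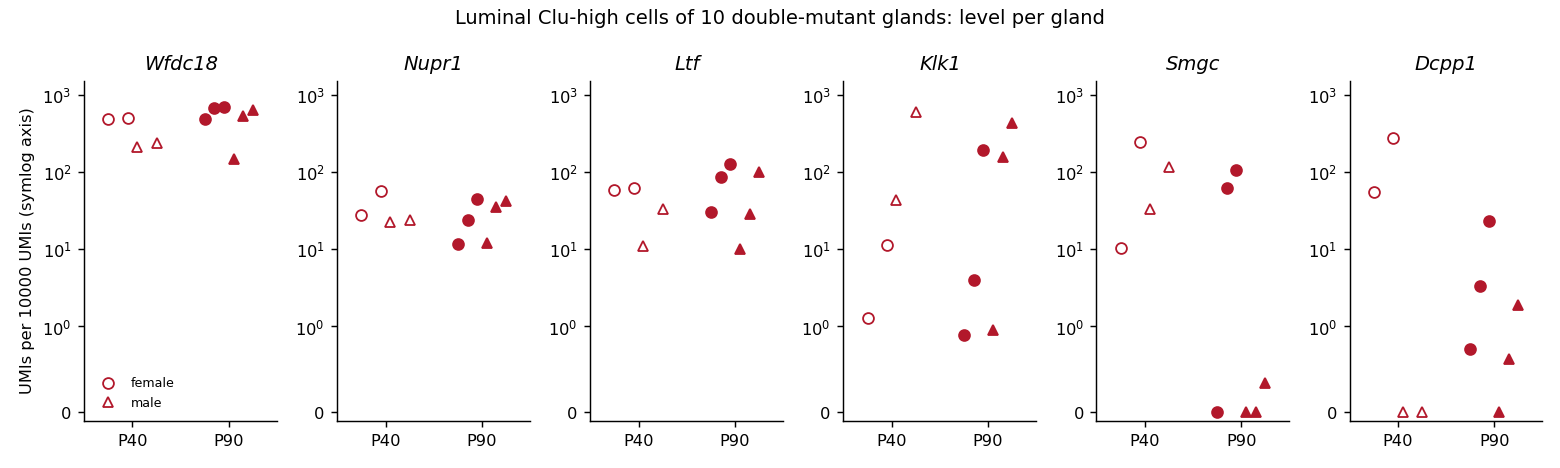
Level of 6 genes in luminal Clu-high cells (y axis, UMIs per 10000 UMIs summed per gland, symmetric log axis, linear below 1) at P40 and P90 (x axis). Each point is 1 of 10 double-mutant glands (circles female, triangles male by label, open symbols P40); Klk1 spans 0.901 to 594 and Wfdc18 147 to 700.

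The gate also caught 22 cells in control glands, too few per gland (0 to 6) for a test by genotype, and their pooled levels differed from those of the gated double-mutant cells for some genes. They held 31314 UMIs in all. Wfdc18 was at 20.8 UMIs per 10000 (exact 95% Poisson interval 16.0 to 26.5) in control and 437 in double-mutant gated cells. Ltf, Igf2, Ecm1 and Reg3g had 0 UMIs in the control cells. Set against 3 counts over the group, the double-mutant level was 46.4-fold for Ltf, 16.1-fold for Igf2, 3.44-fold for Reg3g and 3.41-fold for Ecm1. In double-mutant gated cells these UMIs came from only a part of the cells, from 9.07% for Reg3g to 44.5% for Ltf. The 3 counts allow for UMIs and not for cells, so with 22 control cells these ratios are no minimum folds. For Nupr1 (33.5, interval 27.4 to 40.6), Anxa1 (22.7, 17.7 to 28.6) and Bglap3 (22.4, 17.4 to 28.2) the double-mutant levels of 30.3, 18.8 and 17.9 lay within the counting interval of the control cells. Cldn4 was higher in control cells, at 34.2 (28.0 to 41.3) against 15.9, and so was Klk1, at 841 (809 to 874) against 171. Median depth was 1325 UMIs in control and 955 in double-mutant gated cells, and the intervals cover counting error only.

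In the double-mutant CITE-seq glands, which neither the rule nor the gene tests had used, Ltf stood at 81.0 and 116 UMIs per 10000 in gated cells (302 and 173 UMIs) and at 1.13 and 1.93 in Clu-free luminal cells. Wfdc18 stood at 670 and 522 against 65.3 and 30.2. All 12 named higher genes were higher in both glands, and 9 of 12 named lower genes were lower in both. On the same scale of UMIs per 10000, 55.0% of all 1956 tested genes were higher in both glands and 9.10% lower in both, so the count of higher genes is to be read against a background that is itself high.

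Surface proteins were read from 61 antibody tags as a percent of each cell's tags, with the median over cells given for both double-mutant CITE-seq glands in turn. The antibody to Ly6A/E, which covers the product of Ly6a, took 1.72% and 2.04% of tags in gated cells and 0.571% and 0.602% in Clu-free cells, in the direction of its transcript. The 4 isotype controls, antibodies without a target that show unspecific binding, took 0.548% to 1.37% in gated and 0.464% to 1.47% in Clu-free cells, so antibodies at such levels, CD54 among them, cannot be told from unspecific binding by level alone. ICAM-1 (CD54), an adhesion molecule for leukocytes, took 0.764% and 0.791% against 0.337% and 0.231%, and the integrin beta-4 chain CD104 1.85% and 1.41% against 1.40% and 1.08%. The transferrin receptor CD71 was lower (1.38% and 1.51% against 2.21% and 1.93%). EpCAM took 3.74% and 2.50% against 3.01% and 3.02%, with no common direction, and 0.199% and 0.222% in C1qa-bearing macrophages, whereas the class II antibody took 0.988% and 0.783% in gated cells and 55.8% and 53.6% in macrophages. By both tags the gated cells stood apart from macrophages. In both glands 17 of the 57 antibodies that are not isotype controls were higher and 8 lower in gated than in Clu-free cells, as were 1 and 2 of the 4 controls; with 2 glands no test was made, and a median of 799 and 542 tags per gated cell against 593 and 527 per Clu-free cell was counted.

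**Figure D5:**
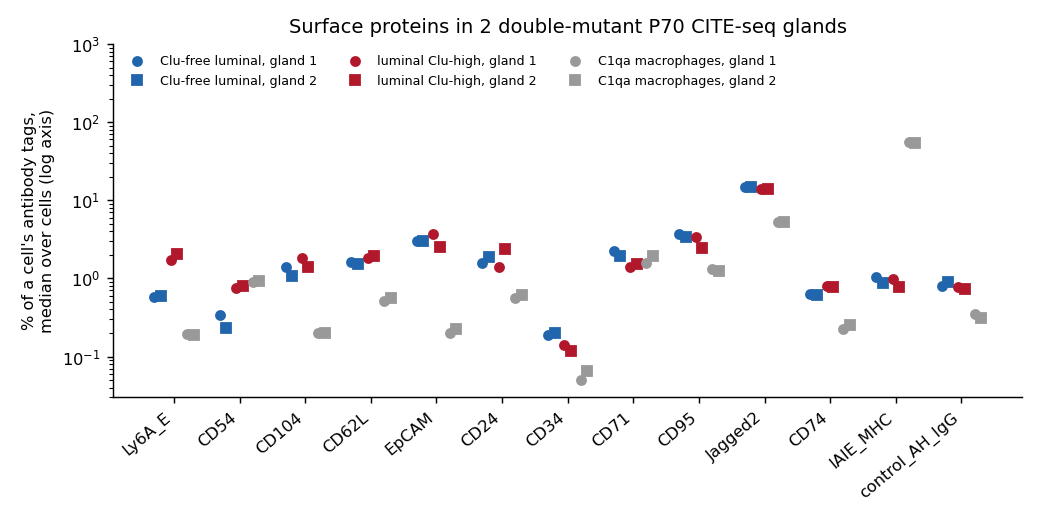
Antibody tags as a percent of all tags of a cell, median over cells (y axis, log axis), for 13 of 61 antibodies (x axis) in 2 double-mutant P70 glands. Circles and squares are the 2 glands and colours the populations; the Ly6A_E antibody is at 1.72% and 2.04% in luminal Clu-high cells and at 0.571% and 0.602% in Clu-free luminal cells.

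In whole-gland bulk RNA, with 1 library a genotype and no test, Clu was at 6.63 CPM (counts divided by the library total and scaled) in the control and 110 CPM in the double-mutant gland, Wfdc18 at 64.4 and 587, and Lcn2 at 1.30 and 7.43. Ltf had 2 counts in the control library and 507 in the double-mutant library, and Reg3g 0 and 48. These genes were higher in the double-mutant library. Not all leading genes were: Wfdc2 was at 48.8 and 28.2 CPM, Ly6d at 10.2 and 5.21, Anxa1 at 62.0 and 56.5 and Ly6a at 39.8 and 39.0. In bulk RNA a difference in the number of such cells and a difference in RNA per cell cannot be told apart, and the libraries also differed in age.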

How the data were processed

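The authors mapped the reads with STAR to mm10 and deposited UMI counts per gene and barcode for Drop-seq and CITE-seq, antibody tag counts for the same barcodes and featureCounts counts per gene for bulk RNA; all deposited counts are raw. Whether the tag counts are UMIs or reads is not given in the sources used here. A human cell spike-in of the CITE-seq libraries was filtered out by the authors before deposit.

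Barcodes with at least 100 genes and under 15% mitochondrial UMIs were kept (for CITE-seq also under 2500 genes). The members, the gene lists and the comparisons were chosen with earlier results of these data known. Groups came from the sample titles. Shares were compared over glands by exact permutation tests for stage and sex; for genotype, values are given without a test. UMIs were summed per gland and population (at least 10 cells), the 11 genes of the gate were left out of the tests and library sizes, and edgeR 4.0.16 (R 4.3.3; filterByExpr with a minimum of 5 counts and 15 in all, TMM, glmQLFit and glmQLFTest) was run with Benjamini-Hochberg adjustment at 0.05. Levels are UMIs per 10000 of all UMIs, summed per gland. The named genes were, per comparison and direction, up to 12 with the smallest p and a log2 difference of at least 1, without ribosomal, mitochondrial, clone and predicted genes, plus members of the fixed lists; the stage comparison named none. Simulated counts were used to check the test. Alternatives were DESeq2 1.42.0 with its size factors, total-UMI scaling (added after seeing the data), other filters and covariates, depth thinning, and leaving out each gland. Each replicate was 1 gland; the sources used here do not state that no mouse gave more than 1 gland, so p-values measure only the spread between these glands, and replicate numbers pair no glands, whereas populations of 1 gland share it, so gland was a block there. Binomial and Poisson intervals (exact, 95%) and limits for a count of 0 (3 counts) cover counting error only. Genes by genotype within the gate were not tested, since no control gland held 10 gated cells. A gene named by the rule for named genes is not reported here.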

Additional observations from a re-analysis of the deposited data

Results flagged for a closer look

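Single glands stood far from the others of their group in 6 of 30 groups of 4 to 7 glands examined with Dixon's test. Chance alone marks about 1 group in 20 if the values are normally distributed. The count of 6 of 30 lies above that rate. Shares and UMI levels need not be normally distributed, so the rate may be too low here, and whether there is an excess was not tested. The share of gated cells was 0.702% in control P40 replicate 1, against 0.0872% to 0.212% in the other 5 glands, and 0.504% in control P90 replicate 2, against 0% to 0.133%. Among gated cells, Nupr1 was at 56.1 UMIs per 10000 in double-mutant P40 replicate 2, against 22.7 to 27.4 in the other 3 glands. Klk1 was at 594 in double-mutant P40 replicate 1, against 1.30 to 43.0. Ecm1 was at 7.69 in double-mutant P90 replicate 5, against 0.310 to 3.003, and the demilune-cell gene Dcpp1 at 23.4 in double-mutant P90 replicate 3, against 0 to 3.30. Double-mutant P40 replicate 1 and P90 replicate 5 are the libraries whose sex-linked transcripts went against their labels.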

How the results depend on the processing

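The genotype difference in the share of gated cells, a description with no test, was 2.45 to 2.80 points with any gland left out. The stage difference, which did not pass, was 0.933 to 1.66 points with any gland left out. Between means pooled over the glands of batches with both stages it was -0.336. On those batches it was -0.166 after thinning cells to 500 UMIs and -1.41 without the 2 libraries that go against their labelled sex (the last 2 chosen after seeing the data). The sex difference was 0.0731 to 0.992 points with any gland left out and -0.163 with at least 3 Clu UMIs at 40 per 10000 or more; the cause of these changes of sign was not tested.

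Replicate numbers do not pair the glands; with a replicate block the stage difference was 1.22 points (exact permutation test, p = 0.172), the sex difference -0.652 points over 4 pairs, and the stage test called 1 gene in place of 0. Without a replicate block, that is without gland in the fit, 174 genes were called against Clu-free luminal cells in place of 369 and 188 against basal-keratin cells in place of 296.

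Without a filter on low counts the calls were 4 by stage, 1021 against Clu-free cells and 534 against basal-keratin cells, with more genes tested. With any gland left out they were 0, 271 to 388 and 251 to 297. Against Clu-free cells, total UMIs in place of TMM gave 1532, thinned summed libraries 29 (of fewer genes tested) and the number of cells as covariate 0. In that last fit cell number goes with population, at 14 to 53 cells against 83 to 400 per gland, and B2m (-0.29), Hbegf (-0.86), Reg3g (-0.26) and Slpi (-2.05) changed sign. Of 42 genes with values followed against Clu-free cells, 39 kept their call by total UMIs and 40 by DESeq2, and of 35 against basal-keratin cells 32 and 34. Of the same 42 genes, 10 lost their call without gland in the fit and 8 without a filter on low counts. With thinned summed libraries 10 lost it and 14 kept it, and with the number of cells as covariate 38 lost it and 4 changed sign. In at least 1 alternative 41 of the 42 lost their call, and 5 of the 35 against basal-keratin cells. Alternatives for genes by genotype within the gate could not be fitted, since no control gland held 10 gated cells. At a median of 955 UMIs a cell, 856 genes could be tested by stage.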
